A study of Mus musculus with 14 samples.

Results

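The genes described here are those through which the liver handles iron. They were 10 genes chosen by name, namely Hamp, Trf, Tfrc, Tfr2, Hfe, Fth1, Ftl1, Slc40a1, Bmp6 and Cp, and each was read on the probe set that the platform annotation gives to that gene alone. For 9 of the 10 there was 1 such probe set, and the 9 stood among 19237 genes measured in the same way. Ftl1 had none, since each of the 6 probe sets that carry its name is also annotated to Ftl2-ps, and those 6 are described apart. Liver RNA came from 7 K289R mice and 7 wild-type (WT) mice, with 1 Affymetrix whole-transcript array per mouse. LRH-1 is a nuclear receptor of hepatocytes and the product of Nr5a2, and in K289R mice the lysine that accepts the modifier SUMO is replaced by arginine. Mice of both genotypes were 17 to 19 weeks old, fed freely and killed at 7 am. The labels name no sex or litter and no iron content of diet or liver. Each array was labelled a biological replicate of its genotype, numbered 1 to 7.

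The liver both stores iron and sets its level in the body. Hepatocytes secrete hepcidin, the product of Hamp, which binds the iron exporter ferroportin on gut and macrophage cells and has it degraded, so that less iron enters the blood. Hepatocytes judge iron by transferrin, the iron carrier of plasma, and by BMP6, a ligand from sinusoidal endothelial cells, and inflammation raises Hamp through STAT3. Inside cells, iron regulatory proteins bind hairpins in messenger RNAs when iron is scarce. They then keep the transferrin receptor message stable and hold back translation of the ferritin messages.

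Levels are log2(intensity + 1) of the deposited linear intensities, and differences are K289R minus WT on that scale with the standard error (SE) of limma's moderated model. A gene is said to have risen or fallen where limma's p, adjusted by Benjamini-Hochberg over all 19237 genes, was under 0.05. By that rule 19.1% of all genes passed, 8.37% higher and 10.8% lower in K289R livers, and for 7.54% of all genes the levels of both genotypes did not overlap. With quantile normalization 54.3% of the called genes were higher in K289R livers, against 43.8% here. The median difference of all genes was 0.05. Olfactory receptor genes, which stand here for genes with no transcript, had array medians of 3.34 to 3.52. Liver markers were strong, with albumin (Alb) at 13.07 in K289R and 13.11 in WT livers. Nr5a2 was at 8.76 in K289R and 8.77 in WT livers, a difference of 0.00 ± 0.08 (SE), which does not test the genotype because 1 residue is changed. The arrays also differed in ways that the labels do not explain. The interquartile range of an array ran from 2.28 to 2.70 in K289R and from 2.36 to 2.83 in WT livers, and it was lowest in K289R replicates 6 and 7. Replicates 5 to 7 differed from replicates 1 to 4 in 1754 genes among K289R livers and in 57 among WT livers (limma, adjusted p under 0.05). What separates these arrays is unknown, so differences of the genes named, cell markers aside, are also given within each of these sets where that changes a call. The spread is that between arrays of a genotype, and their number limits the precision.

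In K289R livers, 3 of the 9 measured iron genes fell and none rose. These were Tfrc, which encodes the transferrin receptor, Fth1, which encodes the heavy chain of ferritin, and Cp, which encodes the copper ferroxidase ceruloplasmin. Their Entrez identifiers are 22042 (Tfrc, chromosome 16), 14319 (Fth1, chromosome 19) and 12870 (Cp, chromosome 3). The 3 differences lay between 1.13-fold and 1.36-fold. The hormone gene Hamp and the exporter gene Slc40a1 did not pass, nor did Bmp6, Hfe, Tfr2 and Trf. The 3 called genes are 33.3% of the 9, beside 19.1% of all genes, 27.5% of the genes with a mean level of at least 5, and 44.4% of the 232 genes with a mean of at least 11. At an unadjusted p under 0.05 limma counted 4 iron genes lower and 1 higher. The share of all genes at that unadjusted p was not counted, and it cannot be below the 19.1% that passed after adjustment. The median difference of the 9 was -0.10, and the median of their absolute differences was 0.16, beside 0.12 for all genes. In whole liver RNA, fewer cells of a type and less RNA per cell cannot be told apart.

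**Figure D1:**
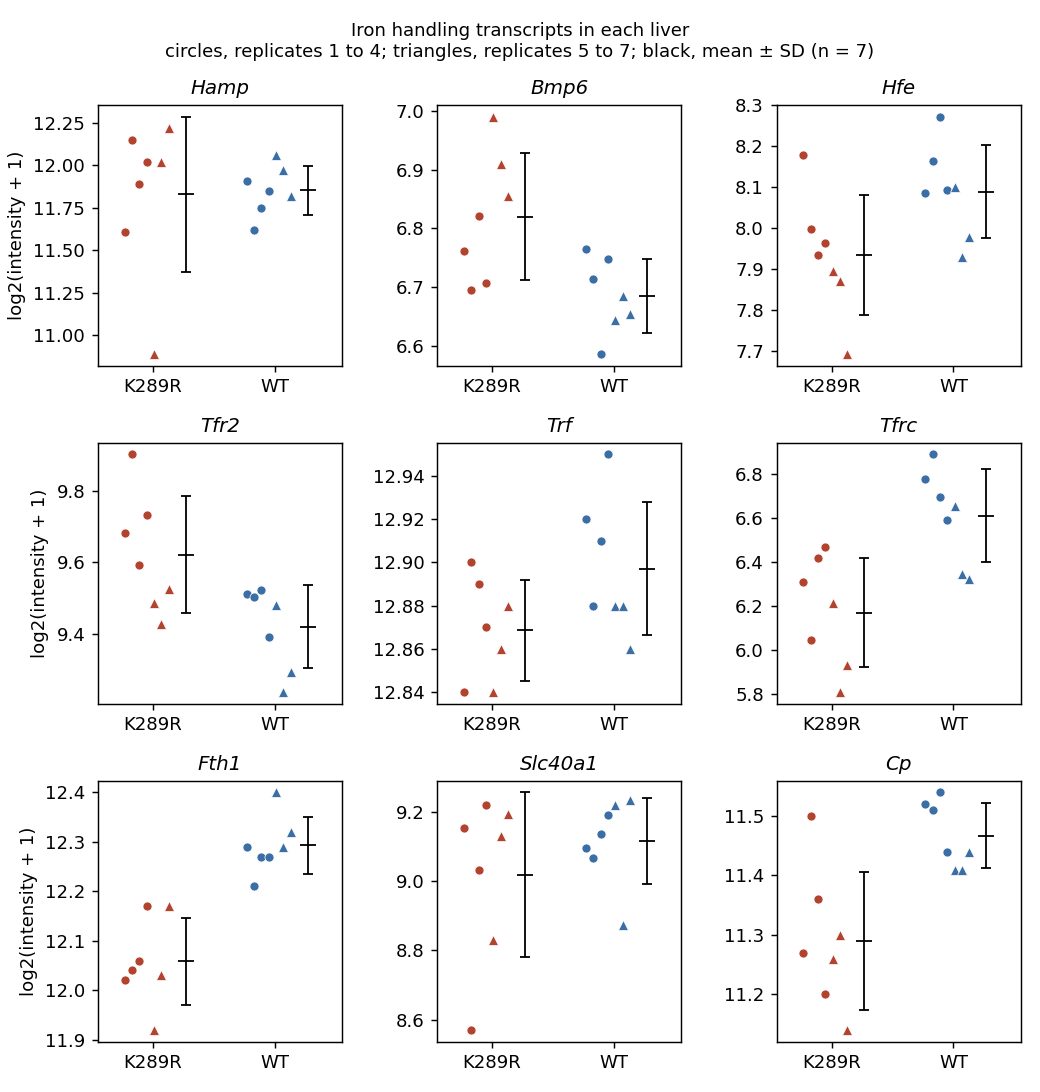
Level of each of the 9 measured iron genes in every liver, as log2(intensity + 1), with K289R livers on the left and WT livers on the right of each panel. Each point is 1 mouse and the black mark is the mean ± SD of 7; the genotypes do not overlap for Fth1 and overlap for the other 8, and the lowest Hamp value, 10.89, is that of 1 K289R liver. Each panel has its own vertical range.

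**Figure D2:**
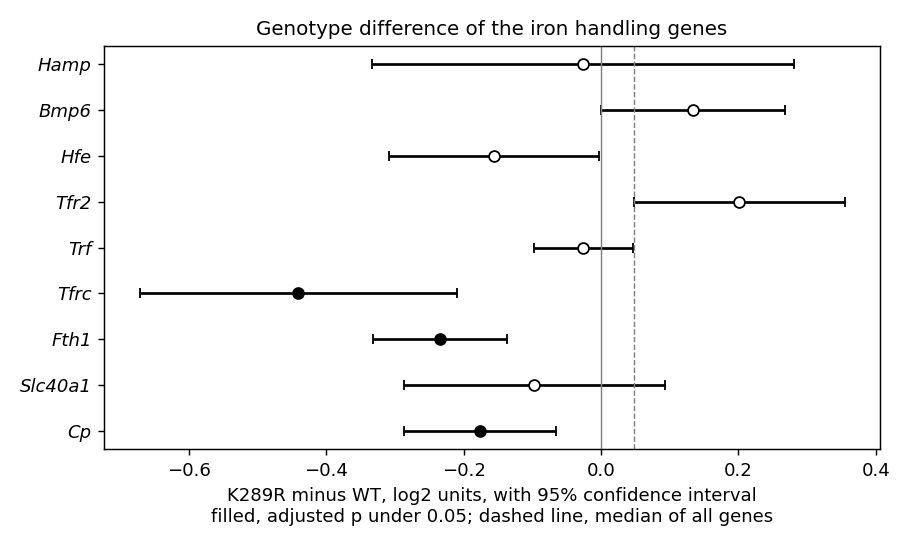
Difference K289R minus WT of the 9 iron genes in log2 units, with the 95% confidence interval of limma's fit. Filled points (Tfrc, Fth1 and Cp) passed an adjusted p of 0.05, and the dashed line is the median difference of all genes, 0.05.

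Hamp, the hepcidin gene, had close means in both genotypes and a larger SD in K289R livers, a difference in spread that was not tested. Its levels were 10.89 at the lowest, 12.02 at the median and 12.22 at the highest in K289R livers, against 11.62, 11.85 and 12.06 in WT livers. Of the 7 K289R livers, 2 lay below all WT livers and 2 lay above them all. The means were 11.83 ± 0.46 in K289R and 11.85 ± 0.14 in WT livers (SD, n = 7 each), with a difference of -0.03 ± 0.15 (SE) and a 95% confidence interval of -0.33 to 0.28 (limma adjusted p = 0.922). K289R replicate 5 carried the lowest value. Without it the K289R mean was 11.98 ± 0.22 (SD, n = 6), and the difference was 0.13 ± 0.09 (SE), with a limma adjusted p of 0.343. The difference was 0.13 ± 0.10 among replicates 1 to 4 and -0.24 ± 0.24 among replicates 5 to 7, and neither passed. Mice have a second hepcidin gene, Hamp2, close in sequence to Hamp, and binding of one transcript to the other's probes was not tested. Hamp2, no member of the set, was at 7.21 in K289R and 6.94 in WT livers (difference 0.28 ± 0.11, limma adjusted p = 0.102).

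The 250 bases before the Hamp start hold matches to 2 kinds of element by which BMP signals and STAT3 are known to act on hepcidin. The BMP-responsive element is the palindrome GGCGCC and the STAT site was searched as TTCNNNGAA. LRH-1 binds extended half-sites, searched here as CAAGGNCA, and the antioxidant response element, known from ferritin genes, was searched as TGACNNNGC. All 4 were searched on both strands in the windows of 8 of the 10 genes, 13 windows in all because some genes have several annotated starts. Trf and Slc40a1 had no window. Sequences are RefSeq's, build GRCm38.p6, printed 5′ to 3′ on the strand of the gene, with the matches in capitals. Hamp is shown for its pair of elements, Tfrc because it fell and holds the BMP element at an annotated start, and Tfr2 because its window at chr5:137570470-137570719 was the 1 window of 13 with an LRH-1 match.
Hamp, chr7:30944030-30944279, minus strand: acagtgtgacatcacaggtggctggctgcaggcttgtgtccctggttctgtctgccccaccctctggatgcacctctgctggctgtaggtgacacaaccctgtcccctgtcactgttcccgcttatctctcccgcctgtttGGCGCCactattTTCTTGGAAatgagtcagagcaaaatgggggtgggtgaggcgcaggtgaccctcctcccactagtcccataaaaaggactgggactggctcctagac
Tfrc, chr16:32608646-32608895, plus strand: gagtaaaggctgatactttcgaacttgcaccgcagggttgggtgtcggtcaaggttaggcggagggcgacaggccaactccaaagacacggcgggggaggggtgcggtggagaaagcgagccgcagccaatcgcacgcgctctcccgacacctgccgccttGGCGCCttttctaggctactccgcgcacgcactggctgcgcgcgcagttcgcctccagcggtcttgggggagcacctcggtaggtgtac
Tfr2, chr5:137570470-137570719, plus strand: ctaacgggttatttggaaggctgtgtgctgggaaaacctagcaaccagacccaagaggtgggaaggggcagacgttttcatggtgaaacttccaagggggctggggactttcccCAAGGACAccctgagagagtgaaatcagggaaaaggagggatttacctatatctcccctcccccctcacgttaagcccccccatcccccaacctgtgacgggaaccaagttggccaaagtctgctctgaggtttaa
In the Hamp window GGCGCC starts 109 bases before the transcript start and TTCTTGGAA 97 bases before it, and the 2 matches do not overlap. The Tfrc match starts 89 bases before its start. The Tfr2 window holds CAAGGACA 136 bases before a start that lies downstream of another annotated start of the gene. Across all 32851 windows of this length, 9.59% held GGCGCC, 7.02% held the STAT pattern, 5.53% held the LRH-1 pattern and 10.2% held the antioxidant pattern. The last was matched in 1 window each of Hfe and Bmp6. None of the 4 patterns lay in the windows of Fth1, Ftl1 or Cp. Elements farther than 250 bases before a start were not searched, so this does not show that these genes lack them. A match of letters is no evidence of binding, and these arrays do not measure binding.

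Bmp6, the endothelial ligand that drives Hamp, was at 6.70 at the lowest, 6.82 at the median and 6.99 at the highest in K289R livers, against 6.59, 6.69 and 6.76 in WT livers. All 7 K289R livers lay above the WT mean and 4 lay above every WT liver. The difference of 0.13 ± 0.06 (SE) nevertheless missed the threshold (limma adjusted p = 0.166), with a 95% confidence interval from 0.00 to 0.27. It was 0.04 ± 0.08 among replicates 1 to 4 and 0.26 ± 0.12 among replicates 5 to 7. The interaction of genotype and set did not pass for Bmp6 (limma adjusted p = 0.582), nor for any other of the 9 genes (lowest adjusted p 0.582).

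Hfe, which encodes a relative of class I histocompatibility proteins that binds both transferrin receptors and is needed for normal hepcidin output, was at 7.69, 7.94 and 8.18 (lowest, median and highest) in K289R livers. In WT livers it was at 7.93, 8.09 and 8.27. The ranges overlapped, with 3 K289R livers below all WT livers. The difference was -0.16 ± 0.07 (SE), with a limma adjusted p of 0.156.

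Tfr2, the transferrin receptor by which hepatocytes sense iron-loaded transferrin, was at 9.43, 9.59 and 9.90 (lowest, median and highest) in K289R livers, against 9.24, 9.48 and 9.52 in WT livers. All 7 K289R livers lay above the WT mean, and 5 of them lay above every WT liver. The difference was 0.20 ± 0.07 (SE), with a 95% confidence interval of 0.05 to 0.35, and limma's adjusted p was 0.0625. That p crossed the threshold with quantile normalization (difference 0.26 ± 0.06, adjusted p = 0.00427), with arrays scaled to a common interquartile range (0.25 ± 0.06, adjusted p = 0.00855) and with set as a term of the fit (0.20 ± 0.06, adjusted p = 0.0188). With sets as random blocks it was 0.175. The difference was 0.25 ± 0.07 among replicates 1 to 4 and 0.14 ± 0.11 among replicates 5 to 7. Over all alternatives the adjusted p of Tfr2 ran from 0.00427 to 0.411, and its difference stayed above 0.

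Around these sensors, the other genes of hepcidin control gave a mixed picture. Of the 23 measured genes of that list, 3 rose, 2 fell and 18 did not pass. That is 21.7% called, beside 19.1% of all genes and 27.5% of genes with a mean of at least 5. The median difference was -0.02, beside 0.05 for all genes. Furin, the convertase that trims the hepcidin precursor, was at 9.40 to 9.69 in K289R and 9.11 to 9.30 in WT livers, with no overlap, and rose by 0.40 ± 0.06 (log2, SE; limma adjusted p = 2.92e-05). Stat3, the transcription factor of the inflammatory route, was at 8.97 to 10.18 in K289R and 8.58 to 8.87 in WT livers and rose by 0.51 ± 0.14 (limma adjusted p = 0.0106). Its highest value was that of K289R replicate 2, and without that array its limma adjusted p was 0.000329. With sets as random blocks Stat3 lost its call. Bmpr2, a type II BMP receptor, rose by 0.34 ± 0.07 (limma adjusted p = 0.00231). These 3 genes passed among replicates 1 to 4 and not among replicates 5 to 7. For Furin the difference was 0.45 ± 0.06 in replicates 1 to 4 and 0.33 ± 0.11 in replicates 5 to 7 (limma adjusted p = 0.0859 in the second set). For Stat3 it was 0.67 ± 0.18 and 0.30 ± 0.11 (0.12 in the second set), and for Bmpr2 0.39 ± 0.08 and 0.27 ± 0.12 (0.169).

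The 2 genes of this list that fell were Acvr1, which encodes a type I receptor for BMP ligands, and Bmp2, the other endothelial ligand that drives hepcidin. Acvr1 was at 6.74 in K289R and 6.98 in WT livers (-0.24 ± 0.07 SE, limma adjusted p = 0.027). Bmp2 was at 6.32 in K289R and 6.63 in WT livers (-0.31 ± 0.10 SE, limma adjusted p = 0.0279). Neither passed within a set: Acvr1 stood at -0.25 ± 0.09 among replicates 1 to 4 and -0.24 ± 0.13 among replicates 5 to 7, and Bmp2 at -0.31 ± 0.12 and -0.31 ± 0.13. Both calls were lost with sets as random blocks (adjusted p of 0.114 and 0.109) and without K289R replicates 6 and 7 (0.107 and 0.0717). When arrays were dropped singly, Acvr1 kept its call in 8 of 14 fits and Bmp2 in 9 of 14.

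Transcripts that respond to BMP signals did not pass. Id1, the target usually read beside Hamp, was at 6.26 in K289R and 6.34 in WT livers (-0.08 ± 0.12 SE, limma adjusted p = 0.685). The inhibitory Smad genes stood at -0.13 ± 0.07 for Smad6 (limma adjusted p = 0.203) and 0.11 ± 0.10 for Smad7 (limma adjusted p = 0.485). Atoh8, a further BMP target, was at 7.06 in K289R and 6.86 in WT livers (limma adjusted p = 0.257). The BMP co-receptor gene Hjv (-0.06 ± 0.08 SE) and Tmprss6, the protease that cuts hemojuvelin (-0.13 ± 0.05 SE, limma adjusted p = 0.104), also did not pass. For none of the 6 does a missed threshold show that the levels were equal.

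Trf, which encodes transferrin, the iron carrier that hepatocytes secrete, varied least among the iron genes. It was at 12.84, 12.87 and 12.90 (lowest, median and highest) in K289R livers, against 12.86, 12.88 and 12.95 in WT livers. The difference was -0.03 ± 0.03 (SE), with a 95% confidence interval of -0.10 to 0.05 (limma adjusted p = 0.655). Only 6 of the 19237 genes had a higher mean over the arrays than Trf, and whether so bright a probe set still follows its transcript in proportion is not known from the files. Tfrc encodes the receptor by which cells take up iron-loaded transferrin, and it showed the largest difference of the 9 iron genes. Its levels were 5.81, 6.21 and 6.46 (lowest, median and highest) in K289R livers, against 6.32, 6.65 and 6.89 in WT livers. Of the 7 K289R livers, 5 lay below every WT liver and all lay below the WT mean. The means were 6.17 ± 0.25 in K289R and 6.61 ± 0.21 in WT livers (SD, n = 7 each), so that Tfrc was 1.36-fold lower in K289R livers (-0.44 ± 0.11 log2, SE; limma adjusted p = 0.00724). The difference was -0.43 ± 0.10 among replicates 1 to 4, where it passed (limma adjusted p = 0.0126), and -0.46 ± 0.14 among replicates 5 to 7, where it did not (limma adjusted p = 0.0644). Replicates 5 to 7 minus replicates 1 to 4 gave -0.32 in K289R and -0.30 in WT livers, neither of which passed limma's threshold.

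Erythroid precursors are rich in transferrin receptor. Of 10 erythroid markers 4 were measured, of which Klf1 rose (0.47 ± 0.08 SE) and 3 did not pass. That is 25% called, beside 19.1% of all genes and 27.5% of genes with a mean of at least 5. The globin genes had no probe set of their own. Alas2, the erythroid enzyme of haem synthesis, differed by -0.10 ± 0.06 (limma adjusted p = 0.272). The summed level of the 4 was 9.53 to 9.84 in K289R and 9.66 to 9.85 in WT livers. It is a sum of linear intensities and is set mostly by Alas2, with a mean level of 9.42. None of the 4 lay at the olfactory receptor level, but that alone does not show expression. Klf1, Slc4a1 and Epor, at means of 5.85, 5.89 and 5.68, lay near the middle of all genes. The part of the erythroid markers in the Tfrc result was not tested.

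Ferritin is the shell that stores iron, and its heavy chain oxidises the iron that enters. Fth1 was at 11.92, 12.04 and 12.17 (lowest, median and highest) in K289R livers, against 12.21, 12.29 and 12.40 in WT livers. It was the 1 iron gene of 9 whose genotypes did not overlap, and 7.54% of all genes did not overlap either. The means were 12.06 ± 0.09 in K289R and 12.29 ± 0.06 in WT livers (SD, n = 7 each). Fth1 thus fell by 0.23 ± 0.05 (log2, SE), a 1.18-fold lower level, with a limma adjusted p of 0.00109. The call held in each of the 14 fits that left out 1 array. It also held with sets as random blocks (adjusted p = 0.0102). Among replicates 1 to 4 the difference was -0.19 ± 0.05 and passed (limma adjusted p = 0.0204). The call was lost among replicates 5 to 7 (-0.30 ± 0.09, adjusted p = 0.0542). With arrays centred and scaled to a common interquartile range the difference was -0.14 ± 0.10 and the call was lost too (adjusted p = 0.347).

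The 6 probe sets annotated to both Ftl1, which encodes the light chain of ferritin, and Ftl2-ps cannot be assigned to either, but they went the same way. Each was lower in K289R livers, by 0.29 to 0.53 in log2 units (limma adjusted p of 0.000143 to 0.0101 over all 35556 probe sets). Over all probe sets, 9.82% were called lower and 16.3% were called in either direction. The probe set 10563295, with the highest level of the 6, was at 11.96 ± 0.11 in K289R and 12.26 ± 0.08 in WT livers (SD, n = 7 each). The probe set 10428336 differed most, at 10.10 ± 0.19 in K289R and 10.63 ± 0.10 in WT livers. Probe sets of one transcript may share probes, so their agreement is not separate evidence. All 6 were called with quantile normalization and with sets as random blocks, and 2 of 6 with arrays scaled to a common interquartile range. Among replicates 5 to 7 none of the 6 passed, with differences of -0.59 to -0.33.

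**Figure D3:**
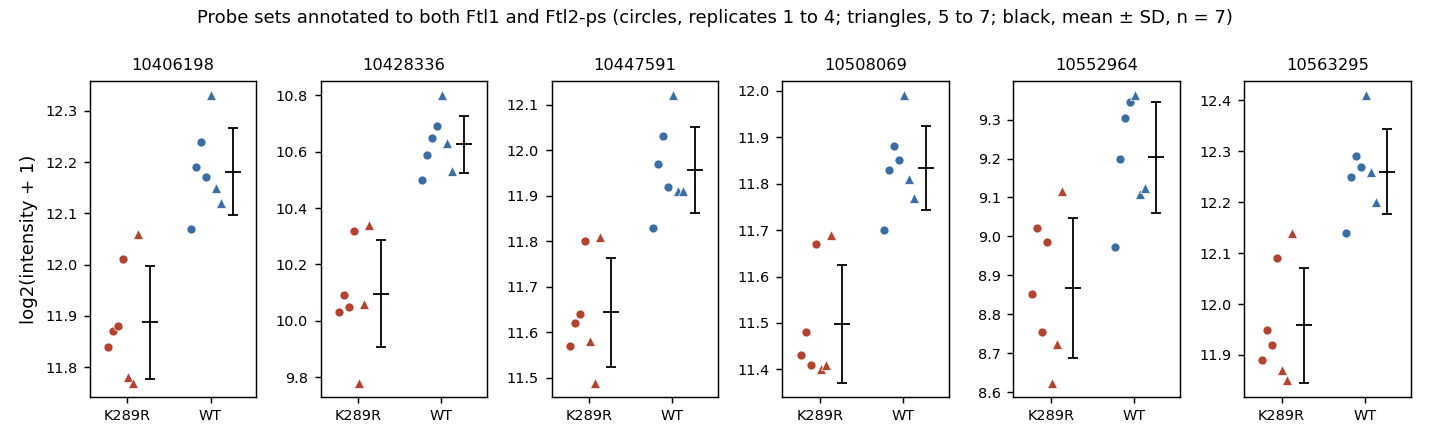
Level of the 6 probe sets annotated to both Ftl1 and Ftl2-ps in every liver, as log2(intensity + 1), with K289R livers left of WT livers in each panel and the probe set's identifier above it. Each point is 1 mouse, the black mark is the mean ± SD of 7, and the K289R mean lies below the WT mean in all 6 panels. Each panel has its own vertical range.

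Iron leaves cells through ferroportin, encoded by Slc40a1, and ferroxidases such as ceruloplasmin help to load it on transferrin. Slc40a1 was at 8.57, 9.13 and 9.22 (lowest, median and highest) in K289R livers, against 8.87, 9.13 and 9.23 in WT livers. The difference was -0.10 ± 0.09 (SE), with a limma adjusted p of 0.500 and a 95% confidence interval of -0.29 to 0.09. The lowest value was that of K289R replicate 2, the liver that also had the highest level of Stat3, Cp and Tfr2 in its group. Without that array the Slc40a1 difference was -0.02 ± 0.07 (limma adjusted p = 0.857). Kupffer cells are rich in ferroportin, and 4 of 12 of their markers fell, 1 rose and 7 did not pass. That is 41.7% called, beside 19.1% of all genes and 27.5% of genes with a mean of at least 5. Among the markers that fell, Vsig4 was at 8.32 in K289R and 9.07 in WT livers and C1qc at 7.25 and 7.77. The other C1q subunit genes lay the other way: C1qa rose by 0.30 (limma adjusted p = 0.0493) and C1qb differed by 0.27 (limma adjusted p = 0.116). Clec4f, a defining Kupffer cell marker, differed by -0.02 ± 0.09. The summed level of the 12 was 10.74 to 11.56 in K289R and 11.23 to 11.50 in WT livers. None of the 12 lay at the olfactory receptor level, which alone does not show expression. The part of the Kupffer cell markers in the Slc40a1 result was not tested.

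Cp was at 11.14, 11.27 and 11.50 (lowest, median and highest) in K289R livers, against 11.41, 11.44 and 11.54 in WT livers. Of the 7 K289R livers 6 lay below every WT liver, and replicate 2 lay within the WT range. Cp fell by 0.18 ± 0.05 (log2, SE), a 1.13-fold lower level (limma adjusted p = 0.0223). Of the 3 calls this one was lost under the most alternatives. It was lost with quantile normalization (-0.10 ± 0.05, adjusted p = 0.141), with sets as random blocks (adjusted p = 0.0961), within either set of arrays (-0.17 ± 0.06 among replicates 1 to 4 and -0.19 ± 0.09 among replicates 5 to 7, adjusted p of 0.107 and 0.208), without an intensity trend in the prior (0.0547), without K289R replicates 6 and 7 (0.064), without WT replicate 3 (0.0525) and with arrays scaled to a common interquartile range (0.436).

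**Figure D4:**
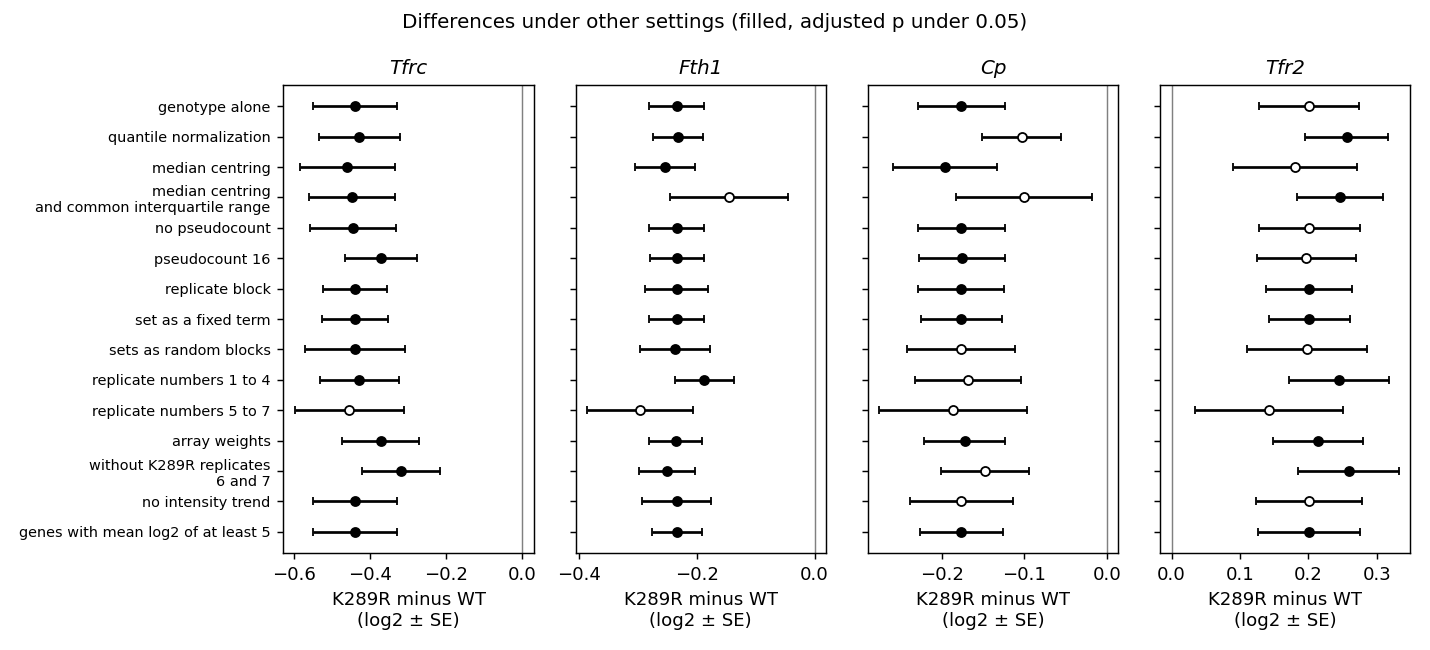
Difference K289R minus WT (log2 ± SE) of Tfrc, Fth1, Cp and Tfr2 under the fit with genotype alone, in the top row, and 14 other settings. Filled points passed an adjusted p of 0.05; Tfrc is filled in all but 1 row, Fth1 in all but 2 rows, and no difference changes sign.

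Of the genes of the iron regulatory proteins, 1 rose. Aco1, which encodes IRP1, a cytosolic aconitase when it holds an iron-sulfur cluster, was at 10.42 to 10.78 in K289R and 10.21 to 10.42 in WT livers and rose by 0.26 ± 0.06 (log2, SE; limma adjusted p = 0.0028). Its difference was 0.28 ± 0.07 among replicates 1 to 4, where it passed, and 0.22 ± 0.10 among replicates 5 to 7, where it did not (limma adjusted p = 0.184). Ireb2, which encodes IRP2, differed by 0.07 ± 0.10 (limma adjusted p = 0.667). Fbxl5, the ligase that removes IRP2 when iron is plentiful, was at 6.27 in K289R and 6.54 in WT livers (-0.27 ± 0.10 SE, limma adjusted p = 0.0715). For Fbxl5 the difference was -0.03 ± 0.10 among replicates 1 to 4 and -0.58 ± 0.12 among replicates 5 to 7, where it passed (limma adjusted p = 0.00762), while the interaction did not pass (limma adjusted p = 0.270). Of the 8 measured genes in the list of these proteins and of further messages with iron-responsive elements, 1 rose, 1 fell and 6 did not pass. That is 25% called, beside 19.1% of all genes and 27.5% of genes with a mean of at least 5. The one that fell was Cdc42bpa, a kinase gene with such an element in human messages (-0.33 ± 0.10 SE, limma adjusted p = 0.0194). It lost its call with sets as random blocks, without K289R replicates 6 and 7, and among replicates 1 to 4 (-0.21 ± 0.09, adjusted p = 0.169), and kept it among replicates 5 to 7 (-0.50 ± 0.15, adjusted p = 0.0471).

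No gene of iron transport and storage outside the 10 passed over all arrays. Of 17 measured genes, 0 were called by limma, beside 19.1% of all genes and 27.5% of genes with a mean of at least 5. At an unadjusted p under 0.05 limma counted 1 of the 17. The share of all genes at that p was not counted, and it cannot be below 19.1%. The smallest p belonged to Steap2, an iron and copper reductase gene, at 6.34 in K289R and 6.07 in WT livers (0.27 ± 0.11 SE, limma adjusted p = 0.0916). Next came Lcn2, the siderophore binder lipocalin 2, at 6.31, 7.30 and 8.96 in K289R livers (lowest, median and highest) and 6.26, 6.66 and 7.23 in WT livers, with a limma adjusted p of 0.173. Both passed among replicates 1 to 4 alone. There Steap2 differed by 0.48 ± 0.12 (limma adjusted p = 0.0186), against -0.01 ± 0.13 among replicates 5 to 7, and it also passed without K289R replicate 5 (adjusted p = 0.03). For Lcn2 the difference was 0.91 ± 0.29 in that set (limma adjusted p = 0.0496), against 0.13 ± 0.23 among replicates 5 to 7. The Lcn2 level of 8.96 was that of K289R replicate 2, beside 7.47, 7.28 and 7.30 in K289R replicates 1, 3 and 4. The interaction of genotype and set passed for neither (limma adjusted p of 0.506 and 0.589). The median difference of the 17 was 0.07, beside 0.05 for all genes.

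Haem takes up iron in hepatocytes for their cytochromes. Of 21 measured genes of haem synthesis, carriage and breakdown, 6 rose, 2 fell and 13 did not pass, which is 38.1% called. The share was 19.1% over all genes and 27.5% over genes with a mean of at least 5. Urod, the uroporphyrinogen decarboxylase of haem synthesis, was at 9.60 to 9.94 in K289R and 8.97 to 9.38 in WT livers. It rose by 0.64 ± 0.07 (log2, SE; limma adjusted p = 1.14e-06) and kept its call under every alternative run. Slc46a1, a carrier of haem and folate, rose by 0.42 ± 0.09, and Abcb6, a porphyrin transporter gene, by 0.33 ± 0.07. Both lost their call among replicates 5 to 7, where Slc46a1 differed by 0.43 ± 0.15 and Abcb6 by 0.18 ± 0.13, beside 0.42 ± 0.09 and 0.45 ± 0.07 among replicates 1 to 4. Fech, which encodes the enzyme that puts iron into haem, was at 7.71 in K289R and 8.05 in WT livers and fell by 0.34 ± 0.08 (limma adjusted p = 0.00604), a call also kept under every alternative. Alas1, the first enzyme of the liver pathway, was at 9.03 in K289R and 9.42 in WT livers and varied widely (-0.39 ± 0.24 SE, limma adjusted p = 0.279). The list's median difference was 0.13, beside 0.05 for all genes.

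Of 16 measured genes of iron-sulfur cluster assembly, 1 rose, 4 fell and 11 did not pass, or 31.2% called. The share was 19.1% over all genes and 27.5% over genes with a mean of at least 5. Hspa9, the mitochondrial chaperone that hands clusters on, was at 9.47 to 9.69 in K289R and 9.93 to 10.08 in WT livers and fell by 0.39 ± 0.05 (log2, SE; limma adjusted p = 1.79e-05). Nubp1, a scaffold of cytosolic clusters, fell by 0.40 ± 0.07, and the ferredoxin gene Fdx1 by 0.32 ± 0.08. Among replicates 1 to 4 the Fdx1 difference was -0.37 ± 0.10, and among replicates 5 to 7 it was -0.26 ± 0.12 and did not pass (limma adjusted p = 0.195). Glrx5, a mitochondrial glutaredoxin, fell by 0.24 ± 0.07, a call lost with quantile normalization, with a common interquartile range, with sets as random blocks and within either set of arrays (-0.18 ± 0.08 among replicates 1 to 4 and -0.32 ± 0.11 among replicates 5 to 7). The scaffold gene Iscu (-0.04 ± 0.08 SE) and the sulfur donor gene Nfs1 (-0.05 ± 0.07 SE) did not pass. The median difference of the list was -0.03.

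Hamp, Cp and Trf are also read as plasma proteins of the acute phase, whose other genes moved both ways. Of 18 measured genes 5 rose, 3 fell and 10 did not pass (44.4% called), with a median difference of 0.06. The share was 19.1% over all genes, 27.5% over genes with a mean of at least 5 and 44.4% over genes with a mean of at least 11. The list is not matched to that last group, since it also holds dimmer genes such as Orm3 at a mean of 5.12 and Saa2 at 6.82. Crp, the C-reactive protein gene, was at 9.82 to 10.55 in K289R and 10.88 to 11.01 in WT livers and fell by 0.82 ± 0.08 (log2, SE; limma adjusted p = 3.7e-07). Orm1, an orosomucoid gene, fell by 0.40 ± 0.07. Itih3, an inhibitor heavy chain, rose by 0.42 ± 0.08, and the protease inhibitor gene Serpina3n by 0.45 ± 0.10. For each of these 4 genes, and for no other of the 18, the genotypes did not overlap, beside 7.54% of all genes. K289R replicate 2 had the highest Serpina3n, 12.36 beside 11.54 to 11.73 in the other K289R livers. The same liver had the highest K289R level of every other measured gene of the list except Saa3. There Saa2 was at 10.84, beside 5.64 to 7.10 in the other K289R livers, and Lbp at 10.49, beside 9.23 to 9.71.

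**Figure D5:**
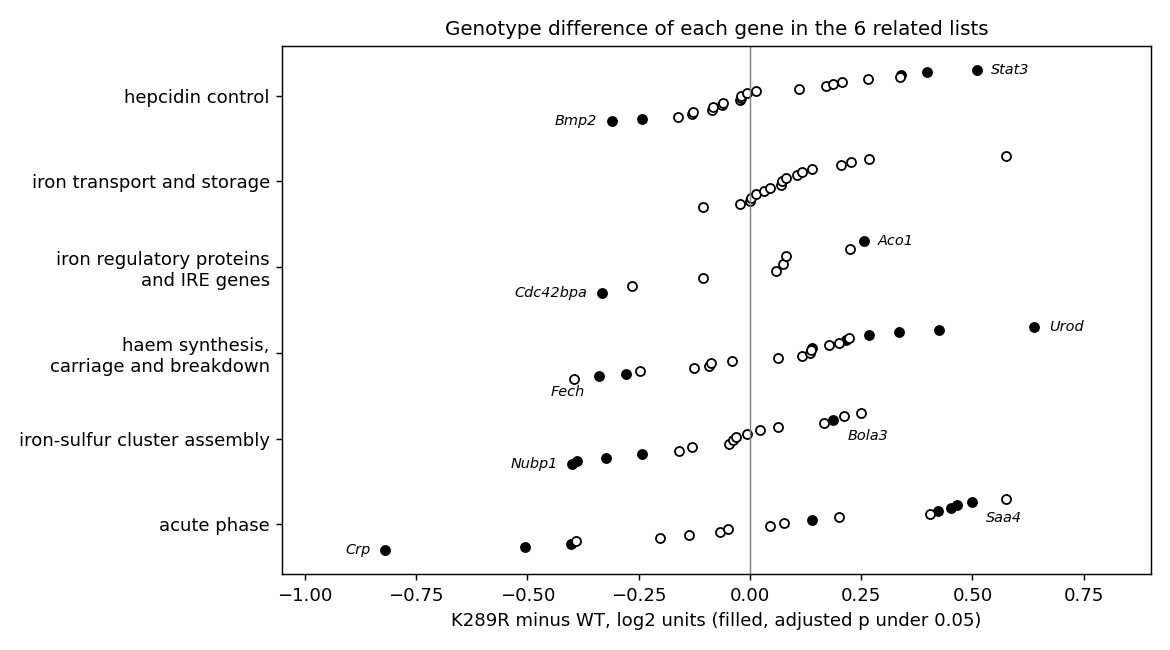
Difference K289R minus WT in log2 units of each measured gene in the 6 lists related to iron handling, with 1 point per gene and the genes of a list ordered by their difference. Filled points passed an adjusted p of 0.05, the lowest and highest called gene of each list is named, and the list of iron transport and storage has no filled point.

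Bmp6 and Bmp2 come from sinusoidal endothelial cells. Of the 10 measured markers of these cells, 2 rose, 1 fell and 7 did not pass. That is 30% called, beside 19.1% of all genes and 27.5% of genes with a mean of at least 5. Eng, a co-receptor for BMP ligands on endothelium, was at 9.17 in K289R and 8.80 in WT livers, and Fcgr2b at 8.27 and 8.60. The summed level of the 10 was 11.49 to 11.84 in K289R and 11.57 to 11.75 in WT livers. Stellate cell markers counted 2 higher and 1 lower of 9 (33.3% called), and hepatocyte markers 1 higher of 8 (12.5% called). The share was 19.1% over all genes and 27.5% over genes with a mean of at least 5. The summed level of the hepatocyte markers was 15.36 to 15.51 in K289R and 15.39 to 15.47 in WT livers. The part of cell numbers in the iron gene results was not tested.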

How the data were processed

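Liver RNA of 7 K289R and 7 WT mice was measured with 1 array per mouse. The deposited values are probe set intensities on a linear scale, which the authors made in Expression Console, Affymetrix's array software, as the submitters' processing notes name it. Its version, the background correction and any scaling between arrays are not given in the sources used here. Of 35556 probe sets, 21456 have 1 gene symbol, 2376 have several and were used only for the Ftl1 and Ftl2-ps values, and 11724 are unnamed here. Symbols were updated by Entrez identifier (GRCm38.p6, 21277 matched, 2 changed). Each of 19237 genes was read on its probe set with the highest mean. Values were taken as log2(intensity + 1) and compared with limma 3.58.1 in R 4.3.3, with genotype alone, an intensity trend in the prior, 2-sided tests and Benjamini-Hochberg adjustment over all genes. The procedure was tested on simulated data, where 24% of 1.2-fold changes and 88% of 1.5-fold changes were called. That simulation drew independent noise for each gene and held no array sets, unlike these data. The genes named are the iron genes, Nr5a2, 10 genes of BMP signalling and iron regulatory proteins, and up to 4 called genes per list with the smallest p, or the 2 with the smallest p where none is called. Hamp2, Alb, Alas1, Iscu, Nfs1 and the cell markers named were chosen after their values were seen. Members, lists, array sets and alternatives were chosen with earlier results of these data known. No array was left out of the fit with genotype alone, and no detection filter was set. The fits over all probe sets and the cut at a mean of 11 were added after seeing the data. Differences on the log2(intensity + 1) scale understate the change of dim genes.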

Additional observations from a re-analysis of the deposited data

Results flagged for a closer look

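In WT livers the Fbxl5 level of replicate 4 was 6.27, while the other 6 WT livers lay between 6.52 and 6.69. Its gap to the nearest liver was 0.595 of the range of the group, above Dixon's 95% critical value for 7 samples. The check was made on both genotypes for each of 20 genes, 40 groups in all, and chance alone marks about 1 in 20 groups. Without WT replicate 4 the difference of Fbxl5 was -0.31 ± 0.10 (SE) and passed (limma adjusted p = 0.0354). It also passed without K289R replicate 1 (-0.31 ± 0.10, adjusted p = 0.0423) and without K289R replicate 3 (-0.32 ± 0.10, adjusted p = 0.0293), neither of which stood apart by this check.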

How the results depend on the processing

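Of 29 alternatives, 14 left out 1 array, and under none did a called difference change sign. Leaving out 1 array gave 1293 to 1634 genes higher and 1757 to 2223 lower, 0 to 1 iron genes higher and 2 to 3 lower. In the same fits hepcidin control had 3 higher and 0 to 2 lower, iron transport 0 to 1 higher, iron regulatory genes 1 to 2 higher and 1 to 2 lower, haem genes 4 to 7 higher and 2 to 3 lower, iron-sulfur genes 0 to 1 higher and 4 lower, and acute phase genes 4 to 6 higher and 2 to 5 lower. The iron gene gained under the following settings was Tfr2: quantile normalization, common interquartile range, replicate block, set as a fixed term, array weights, replicates 1 to 4, genes with a mean of at least 5, and without K289R replicates 6 and 7 each counted 1 iron gene higher. Common interquartile range left 1 iron gene lower (Tfrc). Replicates 5 to 7 left 0 lower by limma's adjusted p. At an unadjusted p under 0.05, 2 iron genes were lower and 1 higher there, and the share of all genes at that p was not counted. Sets as random blocks gave 771 genes higher, haem 3 higher and 1 lower, hepcidin control 0 lower, iron regulatory genes 0 lower, acute phase 3 higher and iron-sulfur 0 higher. Replicates 1 to 4 gave 1378 genes lower, hepcidin control 0 lower, iron regulatory genes 2 higher and 0 lower, and iron transport 2 higher. Replicates 5 to 7 gave 363 genes higher, acute phase 2 higher, haem 1 higher and 1 lower, hepcidin control 0 higher and 0 lower, iron regulatory genes 0 higher and 2 lower, and iron-sulfur 2 lower. Quantile normalization gave haem 10 higher. Median centring gave acute phase 3 higher, haem 3 higher, hepcidin control 1 lower and iron-sulfur 0 higher. The share of all genes called also moved with the setting. It was 19.1% with genotype alone, 23% with quantile normalization, 15.6% with median centring and 11.3% with sets as random blocks. Among replicates 1 to 4 it was 14.1%, and among replicates 5 to 7 it was 9.16%. It was 22.4% with array weights, 21.4% with set as a fixed term and 17.8% without K289R replicates 6 and 7. Iron regulatory genes had 2 lower with set as a fixed term and with the filter at a mean of 5. They had 2 higher with array weights, under which hepcidin control had 1 lower. Without K289R replicates 6 and 7 hepcidin control had 0 lower and iron regulatory genes 2 higher and 0 lower. The causes were not tested. Replicate numbers did not pair the arrays: deviations of same-numbered arrays correlated at -0.298 to 0.562, above 0.1 in 3 of 7 pairs, and 2 of 7 arrays correlated best with their own number. With the replicate block, Tfr2 had an adjusted p of 0.0349 and the block changed no other call among the 9 iron genes. Differences of dim genes are limited by their signal over background.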
